A study of Mus musculus with 172 samples.

Results

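The Nr4a orphan nuclear receptors are encoded in the mouse by the 3 genes *Nr4a1*, *Nr4a2* and *Nr4a3*, and all 3 were taken by name from the tables of expressed genes. In cerebral cortex 3 of 14896 listed genes were members, and in liver 2 of 14107, because *Nr4a3* was listed in cortex only. RNA-seq was made of both tissues from male mice of the BXD panel, which are recombinant inbred lines derived from C57BL/6J and DBA/2J, at 11 to 14 weeks of age. Mice were either kept awake in their home cage by gentle handling for 6 h from light onset (SD, for sleep deprivation) or left undisturbed (Ctr), and both groups were killed at the end of these hours. Each library held the pooled RNA of about 3 mice of 1 line, condition and tissue, so a pool is the unit throughout and the spread between mice of a line was not measured. Fewer mice were available for BXD79, BXD85 and BXD101, which bred poorly. The main comparisons used 39 pools in each of the groups Cortex Ctr, Cortex SD, Liver Ctr and Liver SD. The 39 pools are those of 33 BXD/RwwJ lines, of the reciprocal F1 hybrids (2 pools) and of the parental strains (4 pools), each parental strain having been sampled at the start and again at the end of the breeding phase. By their labels, BXD96, BXD97 and BXD103 are sublines of BXD48, BXD65 and BXD73, and each was counted as a line of its own. A further 4 pools per group come from BXD/TyJ lines (05, 29, 29t and 32) and are described apart. In what follows "SD" means sleep deprivation only, and a value after ± is the standard deviation between pools.

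The members of this family are transcription factors of the nuclear receptor superfamily whose ligand pocket is closed, so that their activity is thought to follow mainly from how much of the protein is made. They bind DNA as monomers or dimers, and *Nr4a1* and *Nr4a2* also as heterodimers with retinoid X receptors. In neurons they are immediate early genes, switched on within minutes to hours by calcium and cAMP signals through CREB and its coactivators. *Nr4a2* has in addition a steady role in dopamine neurons and in claustrum and deep layer cortical neurons, and in hepatocytes family members are induced by glucagon and cAMP and act on genes of gluconeogenesis.

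The sequences before the start sites are shown because the CREB half-site, the 5 letters TGACG or their reverse complement CGTCA, occurs in each of them several times. Per RefSeq, the promoter windows held 250 bases before and 50 bases after the start, and a match to all 3 members was found. The coordinates given are those of the same letters in mm9, the build on which the reads were aligned. Bases are shown up to the earliest start annotated in RefSeq or GENCODE, 5′ to 3′ on the strand of the gene, and capitals mark the half-sites. *Nr4a1* lies on the plus strand at chr15:101097027-101097276, *Nr4a2* on the minus strand at chr2:56976415-56976664 and *Nr4a3* on the plus strand at chr4:48057927-48058024.
Nr4a1: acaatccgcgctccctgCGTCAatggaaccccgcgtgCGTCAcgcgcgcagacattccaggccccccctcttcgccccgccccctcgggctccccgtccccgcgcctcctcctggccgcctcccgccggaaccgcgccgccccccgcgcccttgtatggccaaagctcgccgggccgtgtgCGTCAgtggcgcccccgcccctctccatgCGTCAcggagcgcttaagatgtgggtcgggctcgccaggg
Nr4a2: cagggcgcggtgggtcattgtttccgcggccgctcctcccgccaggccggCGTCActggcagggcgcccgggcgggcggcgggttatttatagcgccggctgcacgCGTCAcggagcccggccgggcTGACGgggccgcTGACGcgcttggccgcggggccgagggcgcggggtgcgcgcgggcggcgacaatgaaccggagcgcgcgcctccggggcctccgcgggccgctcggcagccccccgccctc
Nr4a3: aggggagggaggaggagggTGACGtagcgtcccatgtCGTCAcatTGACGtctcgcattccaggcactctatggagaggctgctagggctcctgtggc
Each of the 3 windows held 4 half-sites, counted on both strands. In *Nr4a3* 3 of them are printed, and the fourth lies after the earliest start of that gene in GENCODE. Of 32851 promoters of the same length, 76 (0.231%) held at least 4 half-sites and 6837 (20.8%) held at least 1. Of the printed bases, 74.4% in *Nr4a1*, 80% in *Nr4a2* and 61.2% in *Nr4a3* are G or C, and the share over all promoters was not matched for this. No member had the full palindrome TGACGTCA (1.79% of all promoters), the receptors' own monomer site AAAGGTCA (1.51%) or a CArG box (1.63%) in its window. These are matches of letters, and no binding was measured.

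The genes themselves differ in size. *Nr4a1* spans chromosome 15 from 101097277 to 101105223 and has 2474 exonic bases in GENCODE vM1. *Nr4a2* spans chromosome 2 from 56959241 to 56976414 with 4059 exonic bases, and *Nr4a3* spans chromosome 4 from 48058025 to 48099319 with 5987 exonic bases. Levels of different members are therefore compared per kilobase of exon. The reads were counted on RefSeq genes and the lengths are those of all GENCODE exons of a gene, so these levels are approximate. How far the exon lengths of these annotations differ was not measured.

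The deposited values are log2 CPM, which the authors derived from reads counted on genes. Per their methods, the counts were scaled to a library size adjusted by edgeR's TMM method and put on a log2 scale. Undoing their scaling returned whole reads, and cortex libraries held 18995492 to 28998853 reads and liver libraries 4681101 to 8269401 reads. The tables of Ctr and SD libraries were deposited separately, but the median change over all genes was -0.0097 in cortex and -0.0015 in liver, and centring each library on its median moved no member by more than 0.0059. As labelled, cortex libraries listed markers of glutamatergic neurons (3 of 3) and interneurons (3 of 3). Of 5 hepatocyte markers they lacked *Alb*, *Apoa1* and *Serpina1c* and listed 2, of which *Ttr* had the higher mean level. The summed level of these 2 was 2.503 to 219.3 CPM in Ctr pools (median 15.98). In SD pools it was 3.167 to 380.5 CPM (median 10.46). Where these reads come from was not tested. Liver libraries listed 5 of 5 hepatocyte markers and 0 of 3 interneuron markers. In liver, long transcripts outranked *Alb*, which stood at 9.08 log2 CPM in Ctr pools against 10.9 for *Apob*. In these bulk tissues, fewer cells of a type and less RNA per cell cannot be told apart.

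Per kilobase of exon, *Nr4a1* was the most abundant member of the family in cortex in each of the 39 Ctr pools, with 27.9 ± 7.27 CPM per kb (lowest 16.3, median 26.8, highest 54.9). *Nr4a2* followed with 7.76 ± 1.98 CPM per kb (lowest 4.66, median 7.68, highest 12.6). *Nr4a3* was the lowest at 1.33 ± 0.389 CPM per kb (lowest 0.603, median 1.22, highest 2.26). The order *Nr4a1*, *Nr4a2*, *Nr4a3* held in each of the 39 Ctr pools and in each of the 39 SD pools. After SD, *Nr4a1* stood at 79.6 ± 14.9, *Nr4a2* at 9.59 ± 2.08 and *Nr4a3* at 3.01 ± 0.635 CPM per kb. The sum of the members rose from a mean of 36.98 to 92.2 CPM per kb, and the share of *Nr4a1* in that sum went from 75.1% to 86.2%. The share of *Nr4a2* went from 21.3% to 10.5%, and that of *Nr4a3* from 3.63% to 3.27%.

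In liver the levels were low, 1.15 ± 0.652 CPM per kb for *Nr4a1* and 0.284 ± 0.162 for *Nr4a2* in Ctr pools. The tissues were normalized in separate tables, so these are values side by side with those of cortex and were not tested against them. *Nr4a1* was above *Nr4a2* in 38 of 39 Ctr pools and in 34 of 39 SD pools. After SD, *Nr4a1* stood at 1.19 ± 0.461 and *Nr4a2* at 0.635 ± 0.294 CPM per kb, and the mean share of *Nr4a2* went from 21.6% to 34.5%.

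**Figure D1:**
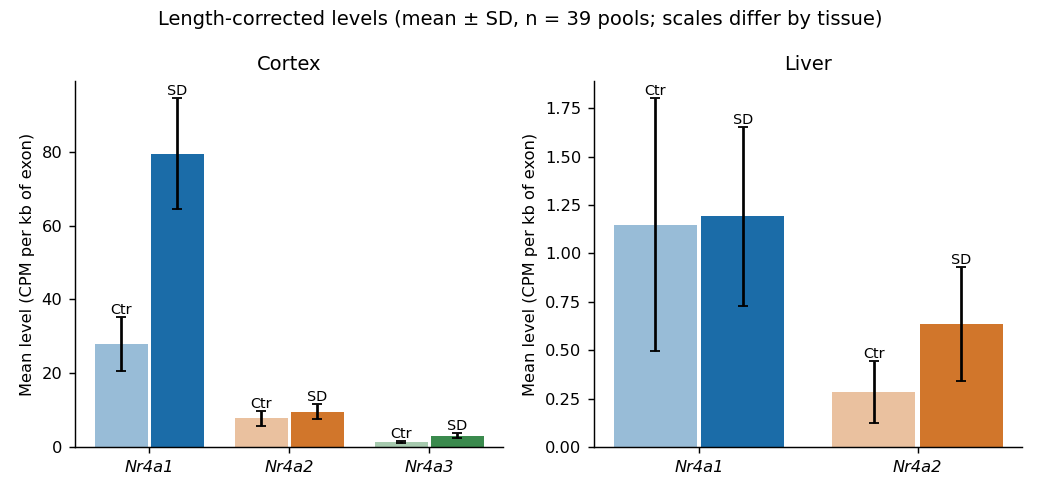
Mean level of each member in CPM per kb of exon (y axis) in Ctr (pale bars) and SD (full bars) pools of cortex (left) and liver (right). Error bars are standard deviations over 39 pools, and the y axes differ between the tissues. In cortex the bar of *Nr4a1* goes from 27.9 to 79.6 CPM per kb, and in liver that of *Nr4a2* from 0.284 to 0.635.

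In cortex the 3 members were all higher after SD, by very unequal amounts. *Nr4a1* rose 2.88-fold and *Nr4a3* 2.31-fold, each in 39 of 39 pools, whereas *Nr4a2* rose 1.25-fold and in 29 of 39 pools. Whether the SD and Ctr pools differ was tested with limma over all genes listed in the tissue, and a change was called at a Benjamini-Hochberg adjusted p under 0.05. By that rule 68.4% of all cortical genes changed, 33% higher and 35.4% lower after SD, so a call by itself is common. By the size of the change, however, *Nr4a1* ranked 26, *Nr4a3* 82 and *Nr4a2* 2571 among the 14896 genes. By the p of the same fit, *Nr4a1* ranked 107, *Nr4a3* 701 and *Nr4a2* 6960.

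*Nr4a1*, the member most used as a marker of recent neuronal activity, ranged in Ctr pools from 5.33 log2 CPM in BXD56 over a median of 6.05 to 7.09 in BXD89. In SD pools it ranged from 7.04 in BXD98 over a median of 7.55 to 8.07 in BXD67. The groups all but separated, as 37 of 39 SD pools lay above the highest Ctr pool and 38 of 39 Ctr pools lay below the lowest SD pool. The exception among the Ctr pools was BXD89. The mean change was 1.53 on the log2 scale (standard error 0.069, 95% interval 1.39 to 1.67, adjusted p = 7.7e-34, limma).

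*Nr4a3*, the least abundant member in cortex, ranged in Ctr pools from 1.87 log2 CPM in BXD90 over a median of 2.87 to 3.76 in BXD83. In SD pools it lay between 3.59 in BXD87 and 4.65 in BXD48, with a median of 4.19. Of the 39 SD pools, 35 lay above the highest Ctr pool. The mean change was 1.21 on the log2 scale (standard error 0.082, 95% interval 1.04 to 1.37, adjusted p = 4.0e-23, limma).

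*Nr4a2* overlapped widely between the groups. It ranged in Ctr pools from 4.24 log2 CPM in BXD67 over a median of 4.96 to 5.68 in BXD89, and in SD pools from 4.48 in BXD64 over a median of 5.30 to 5.92 in BXD75. Only 3 of 39 SD pools were above the highest Ctr pool. The mean change was 0.32 on the log2 scale (standard error 0.076, 95% interval 0.16 to 0.47, adjusted p = 1.8e-04, limma).

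**Figure D2:**
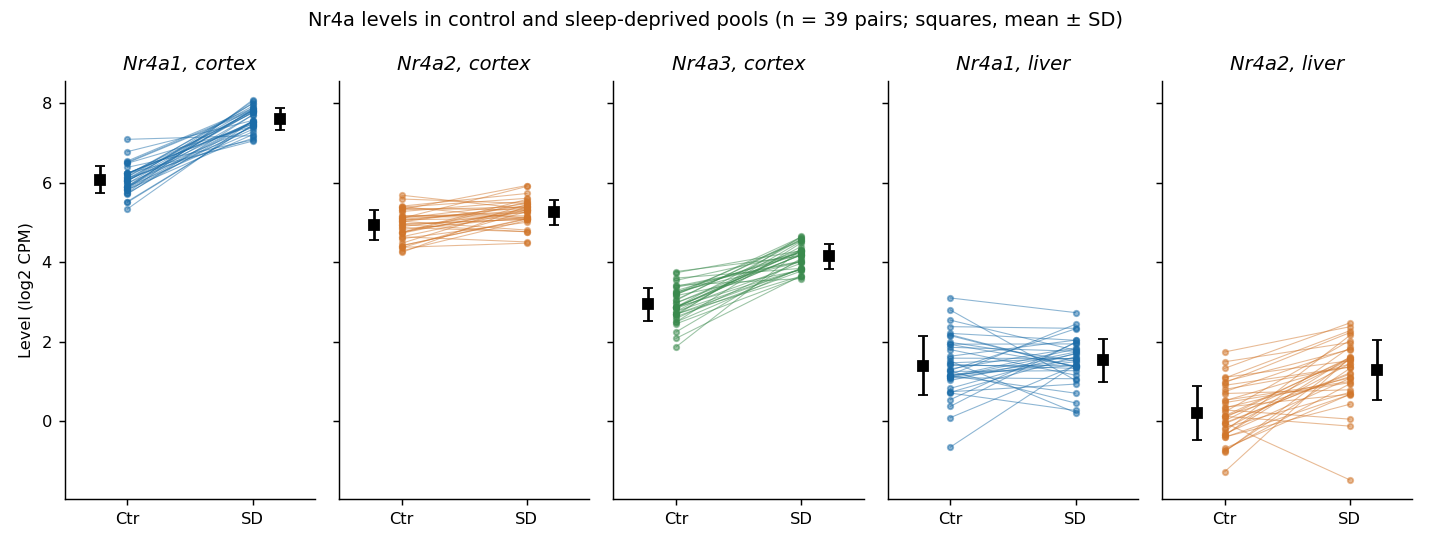
Level of each member in log2 CPM (y axis) in the Ctr and the SD pool of each line, joined by a line, for cortex (3 panels) and liver (2 panels). Squares with bars are means and standard deviations over 39 pools. *Nr4a1* and *Nr4a3* go up in 39 of 39 pools of cortex, while in liver *Nr4a2* goes up in 36 of 39 and *Nr4a1* in 20 of 39.

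Since the members were read in the same libraries, their changes could be compared within a pool. In cortex the change of *Nr4a1* exceeded that of *Nr4a2* in 39 of 39 pools, by 1.21 on the log2 scale (standard error 0.071, adjusted p = 2e-05, two-sided sign-flip permutation test with 100000 resamples, 4 comparisons). It exceeded that of *Nr4a3* in 31 of 39 pools by 0.32 (standard error 0.065, adjusted p = 6e-05, same permutation test). *Nr4a2* changed by 0.89 less than *Nr4a3* (standard error 0.076, adjusted p = 2e-05, same permutation test), and it changed by more than *Nr4a3* in 1 pool. The smallest p that these permutations can give before adjustment is 1e-05, and it was reached for both comparisons with 2e-05.

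In liver *Nr4a2* was higher after SD, while *Nr4a1* did not pass the test. By the same rule 44.2% of all liver genes changed, 21.5% higher and 22.6% lower after SD. *Nr4a2* rose 2.10-fold, with a mean change of 1.07 on the log2 scale (standard error 0.16, 95% interval 0.75 to 1.39, adjusted p = 4.7e-08, limma), and was higher in 36 of 39 pools. It ranked 135 among 14107 genes by the size of the change and 1317 by the p of the same fit. The Ctr pools ranged from -1.27 log2 CPM in BXD73 over a median of 0.14 to 1.74 in BXD81, and the SD pools from -1.47 in BXD70 over a median of 1.37 to 2.47 in BXD56. The groups overlapped, with 10 of 39 SD pools above the highest Ctr pool.

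These liver values rest on few reads. *Nr4a2* had a median of 6 reads in Ctr libraries (2 to 25) and of 17 reads in SD libraries (1 to 38). The SD library of BXD70 held 1 read of *Nr4a2*, and its pool had the lowest change, -1.43. The Ctr library of BXD73 held 2 reads, and its pool had the highest change, 2.87. With reads as sparse as these, counting error alone gives a standard deviation of about 0.68 in the change of a pool, against 0.82 observed between pools.

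*Nr4a1* in liver ranged in Ctr pools from -0.64 log2 CPM in BXD61 over a median of 1.28 to 3.10 in BXD98, and in SD pools from 0.22 in BXD100 over a median of 1.55 to 2.73, again in BXD98. Each of the 39 SD pools lay within the range of the Ctr pools. The mean change was 0.13 on the log2 scale (standard error 0.15, adjusted p = 0.488, limma), up in 20 and down in 19 pools. Its 95% interval, -0.16 to 0.42, does not reach the change seen in cortex. Median reads were 17 in Ctr libraries (3 to 63) and 18 in SD libraries (5 to 50). Within the pools, the change of *Nr4a1* was 0.93 lower than that of *Nr4a2* (standard error 0.19, adjusted p = 6e-05, same permutation test), and it was the larger change in 9 of 39 pools.

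The tissues were compared within a line by subtracting its cortical change from its hepatic change (whether the same mice entered the cortex and the liver pool of a line is not stated in the sources used here), and limma was run on these differences over 12695 genes listed in both. By this test 57.7% of the genes differed, 29.6% with a lower and 28.1% with a higher change in liver. *Nr4a1* changed by 1.39 less in liver (difference -1.39, standard error 0.16, 95% interval -1.72 to -1.07, adjusted p = 1.1e-09), with a lower change in liver in 35 of 39 pools. *Nr4a2* changed by 0.75 more in liver (standard error 0.14, 95% interval 0.48 to 1.03, adjusted p = 9.0e-06), with a higher change in liver in 33 of 39 pools. The 2 members listed in both tissues therefore differed between the tissues in opposite directions.

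**Figure D3:**
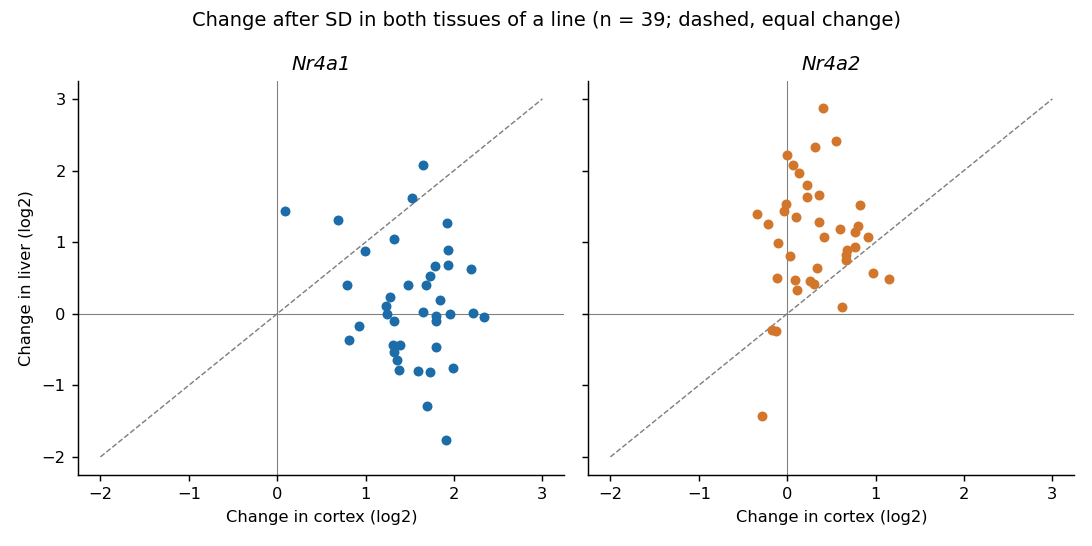
Change after SD in cortex (x axis) and in liver (y axis), both as SD minus Ctr in log2 units, with 1 point per pool (n = 39) for *Nr4a1* (left) and *Nr4a2* (right). On the dashed line the change is equal in both tissues. Of the points, 35 of 39 lie below it for *Nr4a1* and 33 of 39 above it for *Nr4a2*.

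The size of the change varied between pools. Each BXD line gave 1 pool per condition, so a difference between lines cannot be told apart from one between pools of the same line. In cortex the change of *Nr4a1* ran from 0.09 in BXD89 to 2.33 in BXD67, with a standard deviation between pools of 0.46. That of *Nr4a3* ran from 0.17 in BXD87 to 2.45 in BXD90, with a standard deviation of 0.50, and that of *Nr4a2* from -0.34 in BXD89 to 1.16 in BXD67, with a standard deviation of 0.38. The median gene of cortex had a standard deviation of the change of 0.14, and 9.86% of genes had a larger one than *Nr4a1*, 8.32% than *Nr4a3* and 13.7% than *Nr4a2*.

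BXD89 and BXD67 stood at the ends for *Nr4a1* and *Nr4a2*. In BXD89 *Nr4a1* was at 7.09 log2 CPM in Ctr, the highest of the 39 pools, and at 7.18 in SD, where it ranked 36. *Nr4a2* in BXD89 was likewise the highest in Ctr, at 5.68, and went to 5.34 in SD. *Nr4a3* in BXD89 ranked 3 in Ctr at 3.60 and went to 3.84, a change that ranked 38. In BXD67, *Nr4a1* went from 5.74 to 8.07 and *Nr4a2* from 4.24 to 5.40, each the largest change of its gene, while the change of *Nr4a3*, 1.57, ranked 9. Each of these is 1 pool per condition.

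**Figure D4:**
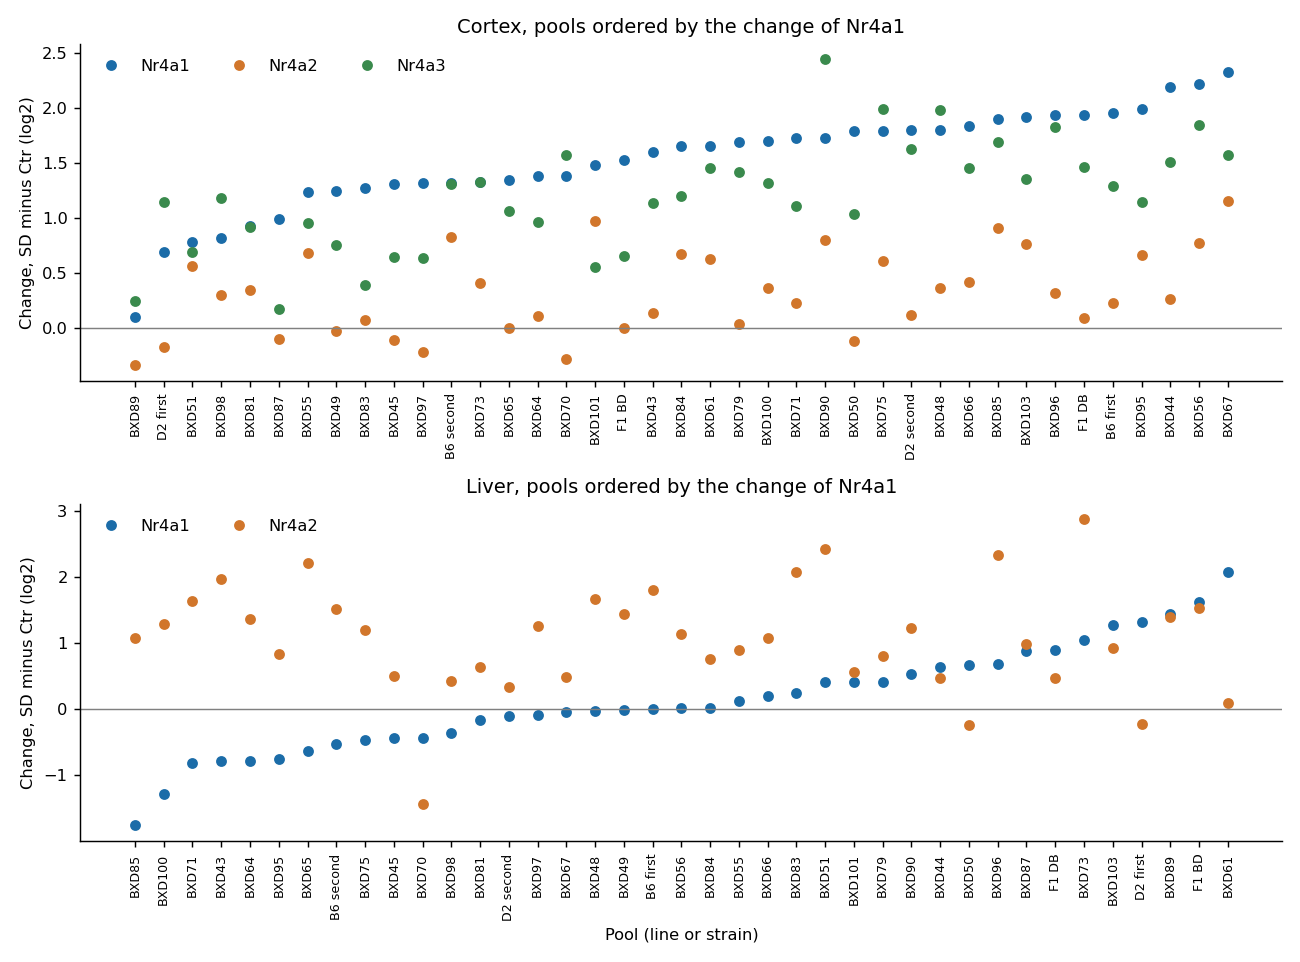
Change after SD (SD minus Ctr, log2) of each member in each pool of cortex (top) and liver (bottom), with pools ordered along the x axis by the change of *Nr4a1*. B6 is C57BL/6J and D2 is DBA/2J, each with a first and a second pool. In cortex the points of *Nr4a1* run from 0.09 to 2.33 and those of *Nr4a2* lie below them in 39 of 39 pools.

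How far a pool can be repeated is shown by the parental strains, each of which gave a first and a second pool. In cortex *Nr4a1* changed by 1.96 and 1.32 in the pools of C57BL/6J and by 0.69 and 1.80 in those of DBA/2J. Repeat pools thus differed by 0.63 in C57BL/6J and by 1.11 in DBA/2J. The standard deviation of 0.46 between all pools is another measure than a difference between 2 pools. Whether repeat pools differ less than pools of different lines was not tested. *Nr4a3* changed by 1.30 and 1.31 in C57BL/6J and by 1.15 and 1.63 in DBA/2J. *Nr4a2* changed in cortex by 0.22 and 0.83 in C57BL/6J, against -0.18 and 0.11 in DBA/2J.

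In liver *Nr4a2* changed by 1.80 and 1.52 in the pools of C57BL/6J and by -0.23 and 0.33 in those of DBA/2J. Both pools of C57BL/6J were above both of DBA/2J for this gene in either tissue, which with 2 pools a strain was not tested. *Nr4a1* in liver changed by -0.0035 and -0.54 in C57BL/6J and by 1.31 and -0.10 in DBA/2J.

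Whether lines were more or less alike after SD was asked of the levels. In cortex the standard deviation between pools was 0.34 in Ctr and 0.28 in SD for *Nr4a1*, 0.37 and 0.32 for *Nr4a2*, and 0.43 and 0.31 for *Nr4a3*. In liver it was 0.73 and 0.55 for *Nr4a1* and 0.69 and 0.76 for *Nr4a2*. None of the 5 comparisons passed (adjusted p from 0.308 to 0.804, two-sided permutation test with 100000 resamples, conditions swapped within a line), and 0 of 5 had an unadjusted p under 0.05. The lowest unadjusted p, 0.0615, was that of *Nr4a3* in cortex, where the ratio of the standard deviations was 0.722.

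Whether the lines kept their order from Ctr to SD was asked next. Over the 39 pools of cortex, the SD level followed the Ctr level for *Nr4a2* (Pearson's r = 0.39, Spearman's rho = 0.42, adjusted p = 0.0428 and 0.0259, permutation tests, 15 relations). For *Nr4a1* r was -0.10 and for *Nr4a3* 0.10 (adjusted p = 0.617 for each, permutation test). Without the 2 pools farthest from the median in Ctr, r was 0.44 for *Nr4a2*. When the closely related sublines and the repeat parental pools were averaged, the relation of *Nr4a2* missed the threshold (r = 0.39, adjusted p = 0.0534, permutation test).

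In cortex the changes of the members were related across pools. The changes of *Nr4a1* and *Nr4a3* had r = 0.64 and rho = 0.70 (adjusted p = 6e-04 and 1.5e-04, permutation tests), and r was 0.62 without the 2 pools farthest from the median. The changes of *Nr4a1* and *Nr4a2* had r = 0.46 and rho = 0.42 (adjusted p = 0.0140 and 0.0259, permutation tests) and r = 0.34 without the 2 farthest pools. Those of *Nr4a2* and *Nr4a3* had r = 0.45 and rho = 0.44 (adjusted p = 0.0170 and 0.0251, permutation tests) and r = 0.54 without them. Both values of a pair come from the same libraries.

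Leaving out BXD67 and BXD89, a choice made after seeing the data, kept the relation of *Nr4a1* and *Nr4a3* (r = 0.59, adjusted p = 0.00195, permutation test, 37 pools). The relations of *Nr4a2* with *Nr4a1* (r = 0.31, adjusted p = 0.161) and with *Nr4a3* (r = 0.38, adjusted p = 0.0778) did not pass the permutation test without these pools. BXD67 had the largest and BXD89 the smallest change of *Nr4a1* and of *Nr4a2*. For *Nr4a3* their changes ranked 9 and 38. In undisturbed mice the levels of *Nr4a1* and *Nr4a3* were also related (r = 0.54, rho = 0.51, adjusted p = 0.00323 and 0.00743, permutation tests), with r = 0.44 without the 2 farthest pools. Those of *Nr4a2* and *Nr4a3* had r = 0.067 (adjusted p = 0.686, permutation test).

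**Figure D5:**
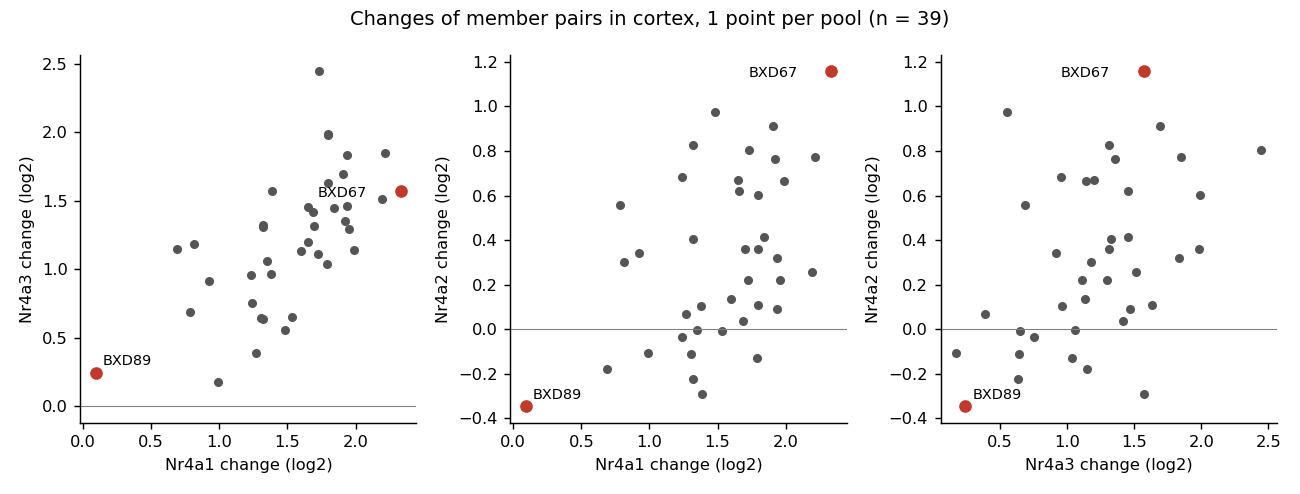
Change after SD (log2) of 1 member against another in cortex, 1 point per pool (n = 39), for *Nr4a1* and *Nr4a3* (left), *Nr4a1* and *Nr4a2* (middle) and *Nr4a3* and *Nr4a2* (right). BXD67 and BXD89 are in red. The points are closest to a line in the left panel (r = 0.64), and r is 0.46 and 0.45 in the other panels.

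No such relation passed in liver or between the tissues. The changes of *Nr4a1* and *Nr4a2* in liver had r = -0.083 (adjusted p = 0.662, permutation test). The change in cortex and the change in liver had r = -0.19 for *Nr4a1* (adjusted p = 0.357) and 0.11 for *Nr4a2* (adjusted p = 0.617, permutation tests). At the read numbers of liver, a relation of moderate size may not be detectable.

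The genes whose change across the 39 pools was most like that of a member were found among genes with a mean of at least 0 log2 CPM, 13740 in cortex and 12869 in liver. These are descriptions of the highest of many correlations and carry no test. For *Nr4a1* in cortex they were *Dusp6* (r = 0.88) and *Dusp1* (0.87), which encode MAP kinase phosphatases, *Arc* (0.86), which encodes a synaptic protein induced by activity, and *Fos* (0.85), an AP-1 subunit. In the same pools *Arc* rose 7.57-fold and *Fos* 4.75-fold. For *Nr4a3* they were *D8Ertd82e* (0.83), *Irs2* (0.82), an insulin receptor substrate, *Pcsk1* (0.81), a prohormone convertase, and *Fosl2* (0.80), another AP-1 subunit.

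For *Nr4a2* in cortex the highest correlations were lower, with *Arpp21* (0.66), *Klhl9* (0.65), *Ankrd63* (0.64) and *Gnb4* (0.64). Of these *Gnb4*, a G protein subunit enriched in the claustrum, fell after SD (log2 change -0.41, standard error 0.049, adjusted p = 1.1e-11, limma), and *Arpp21* had a log2 change of 0.0058 (adjusted p = 0.873, limma). In a list of 6 markers of claustrum and layer 6b, 4 fell, 1 rose and 1 did not pass. Over all cortical genes 35.4% fell and 33% rose. The summed level of the 6 markers was 76.8 to 123.6 CPM in Ctr pools (median 103.9) and 77.0 to 125.5 CPM in SD pools (median 99.8). The part of these cells in the values of *Nr4a2* was not tested. In liver the highest correlations were *Zbtb2* (0.61), *Tfe3* (0.59), *Lpar2* (0.56) and *Ltb* (0.54) for *Nr4a1*, and *Inadl* (0.66), *Cyb5d1* (0.64), *Abca5* (0.62) and *Cstf2* (0.61) for *Nr4a2*.

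Among the partners of the family, the retinoid X receptors changed little in cortex. *Rxra* rose by 0.15 (standard error 0.021, adjusted p = 3.1e-09, limma) and *Rxrb* by 0.059 (standard error 0.017, adjusted p = 0.00129) on the log2 scale, and *Rxrg* had a change of 0.067 (adjusted p = 0.672). In liver *Rxrb* rose by 0.30 (adjusted p = 2.6e-13, limma) and *Rxra* by 0.057 (adjusted p = 0.0121), while *Rxrg* fell by 0.48 (adjusted p = 2.9e-06).

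Of 30 genes for regulators upstream of the family (among them CREB factors and coactivators, MEF2 and NFAT factors, calcineurin, salt-inducible kinases and class II histone deacetylases), 13 rose and 11 fell in cortex (33% and 35.4% of all genes), with a median change of 0.023 against -0.0097 over all genes. The largest change was that of *Sik1*, a kinase that holds back CREB coactivators and is itself a CREB target, which rose 2.77-fold (adjusted p = 5.5e-36, limma). *Crem*, which also encodes a cAMP-induced repressor, rose 1.82-fold (adjusted p = 2.9e-33) and *Sik2* rose 1.37-fold (adjusted p = 4.8e-16). In liver, 7 of 29 listed rose and 8 fell (21.5% and 22.6% of all liver genes), with a median of 0.018 against -0.0015 over all genes. The named ones there were *Hdac9* and *Nfatc4*, which fell by 0.48 and 0.43, and *Creb1*, which rose by 0.31 on the log2 scale.

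Of coregulators of the family, 8 of 16 listed rose and 3 fell in cortex (median 0.092, with 33% higher and 35.4% lower over all genes), with *Ppargc1b*, a coactivator, 1.17-fold higher (adjusted p = 1.1e-04, limma) and *Rcor1*, a corepressor, 1.16-fold higher (adjusted p = 1.5e-08). In liver 2 of 17 listed rose and 1 fell (21.5% and 22.6% of all liver genes), with a median of 0.016. Those called were *Med1* (log2 change 0.21), *Ncor1* (0.13) and *Ncoa1* (-0.12).

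Genes known as targets of the family in neurons were 10 listed of 13 in cortex. Of them 6 rose and 1 fell (33% and 35.4% of all cortical genes), with a median change of 0.33 on the log2 scale. *Bdnf*, a neurotrophin, rose 2.22-fold (adjusted p = 1.3e-26, limma), *Gch1*, an enzyme that makes the cofactor of dopamine synthesis, rose 1.58-fold (adjusted p = 5.2e-12) and *Ret*, a neurotrophic factor receptor, rose 1.38-fold (adjusted p = 1.8e-06). In liver 0 of 9 listed rose and 1 fell (21.5% and 22.6% of all liver genes), namely *Bdnf* (log2 change -0.25, adjusted p = 0.0342, limma).

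Of 6 targets in glucose metabolism, 5 were listed in liver. *Pck1*, which encodes an enzyme of gluconeogenesis, rose by 0.14 (standard error 0.036, adjusted p = 6.0e-04, limma), and *Slc2a2*, the hepatocyte glucose transporter, fell by 0.071 (standard error 0.025, adjusted p = 0.0148) on the log2 scale. The other 3 did not pass, and the median of the list was 0.016. Over all liver genes 21.5% rose and 22.6% fell. In cortex the 1 listed gene, *Eno3*, an enolase, fell to 0.633 times its Ctr level (adjusted p = 2.8e-10).

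Of other orphan receptors in cortex, 1 of 15 listed rose and 11 fell, beside 33% and 35.4% of all cortical genes, with a median change of -0.14 against -0.0097 over all genes. *Nr2f1*, a COUP factor that patterns the cortex, fell by 0.43 (adjusted p = 8.4e-30, limma) and *Esrrb* by 0.37 (adjusted p = 1.1e-05) on the log2 scale. In liver 4 of 15 listed rose and 5 fell (21.5% and 22.6% of all liver genes), with a median of -0.028. The named ones were *Esrrg*, which fell by 1.32 (adjusted p = 1.7e-12, limma), *Esrrb*, which rose by 0.40 (adjusted p = 0.00626), and *Nr6a1*, which fell by 0.29 (adjusted p = 3.2e-07).

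Markers of other cells moved with SD in some lists. Over all genes, 21.5% rose and 22.6% fell in liver, and 33% rose and 35.4% fell in cortex. In liver 4 of 4 B cell markers fell, and their summed level was 6.45 to 26.4 CPM in Ctr pools (median 12.3) and 2.30 to 12.7 CPM in SD pools (median 5.17). Of 4 neutrophil markers, 2 were listed in liver and both fell. Of 4 markers of liver endothelium, 2 rose and 1 fell (log2 changes from -0.16 to 0.84), and their summed level was 161.6 to 472 CPM in Ctr pools (median 313.5) and 198.2 to 501.4 CPM in SD pools (median 311.7). Of 4 stellate cell markers, 1 fell. The markers of liver macrophages (0 of 4 called), T cells (0 of 4) and hepatocytes (0 of 5) did not pass. In cortex 2 of 3 microglia markers fell, 2 of 4 markers of brain endothelium rose and 2 fell, and markers of B cells, neutrophils and liver macrophages were not listed. Of 5 striatal markers listed in cortex, 1 rose and 0 fell. Their summed level was 84.5 to 317.8 CPM in Ctr pools (median 132) and 94.6 to 233 CPM in SD pools (median 147.2). The 2 choroid plexus markers listed in cortex did not pass. The part of these cells in the values of the members was not tested.

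In the 4 BXD/TyJ lines, which no test above used, *Nr4a1* changed in cortex by 1.29 to 1.85 on the log2 scale (median 1.31), up in 4 of 4 lines. *Nr4a3* changed by 0.74 to 1.45 (median 1.27), up in 4 of 4. *Nr4a2* changed by -0.073 to 0.61 in cortex (median 0.34) and by -0.64 to 1.21 in liver (median 0.93), up in 3 of 4 in each tissue. In liver *Nr4a1* changed by -0.19 to 1.44 (median 0.98), up in 3 of 4 lines.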

How the data were processed

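The authors pooled RNA by line, condition and tissue, sequenced stranded mRNA libraries in single-end reads of 100 bp, and, per their methods, aligned them with STAR to mm9, counted reads on RefSeq genes with htseq-count, left out genes with a mean count under 10, and deposited log2 CPM after edgeR's TMM scaling. Strand was used in counting. A prior count near 1 had been added, and when it was inverted, 100% of values came out whole to a tolerance of 0.02 reads.

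These log2 CPM values were fitted with limma 3.58.1 in R 4.3.3 (lmFit, eBayes with a variance trend), SD against Ctr, over all listed genes of a tissue, with no block. The paper's voom weights and the line as a replicate block were alternatives. Pools were paired by the line in the labels. The Ctr and SD pools of a line deviated together (lowest correlation 0.299 in cortex and 0.169 in liver). In each tissue 37 of 39 Ctr pools correlated best with the SD pool of their own line, and the others with that of another line. The scripts were tested on simulated data. Permutation tests were run in Python 3.11.15 with numpy 2.4.6.

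The members and gene lists were chosen with earlier results of these data known. Named were the members, the 3 called genes with the largest change per list and tissue, all retinoid X receptors, and the 4 genes most like each member. Some genes that this rule names are not reported here. Alternatives were other scalings, prior counts, filters and sets of pools. Intervals are 95%, come from the limma fits and cover the spread between pools. The standard deviation computed from reads covers counting error only, and reads carried no molecular identifiers. All sample columns of the 4 tables were mapped to a line.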

Additional observations from a re-analysis of the deposited data

Results flagged for a closer look

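The response of *Nr4a1* to SD differed between the tissues in a test of the difference itself (liver minus cortex, -1.39 on the log2 scale), with mean changes of 1.53 in cortex and 0.13 in liver. That of *Nr4a2* differed in the opposite direction (0.75), with mean changes of 0.32 in cortex and 1.07 in liver. Both liver values rest on few reads, at most 63 in a library. In the 4 BXD/TyJ lines, none of the 10 sets of levels held a line far from the other 3 by Dixon's test.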

How the results depend on the processing

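The calls for the members in cortex and liver and for the difference between tissues held in direction and side of the threshold under every alternative fitted, including voom weights, centred or quantile-normalized libraries, prior counts of 0.25 and 5, and the BXD/RwwJ lines alone. The change of *Nr4a2* in liver ranged over them from 0.79 to 1.18, and that of *Nr4a1* in liver from 0.054 to 0.23 (adjusted p from 0.167 to 0.796). Leaving out 1 line at a time gave 1.51 to 1.57 for *Nr4a1*, 0.29 to 0.33 for *Nr4a2* and 1.17 to 1.23 for *Nr4a3* in cortex, 0.083 to 0.18 for *Nr4a1* and 1.02 to 1.13 for *Nr4a2* in liver, and -1.47 to -1.33 for *Nr4a1* and 0.71 to 0.80 for *Nr4a2* between tissues. With the line as a replicate block, 11359 genes were called in cortex and 7603 in liver, against 10191 and 6229 without it, and no call of a member changed (*Nr4a2* in cortex, adjusted p = 2.5e-06, limma). Without pairing, the difference between tissues gave 6026 genes against 7324.

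Measured by the median absolute deviation, the log2 ratio of the spread in SD to that in Ctr turned to 0.30 for *Nr4a1* in cortex and to -0.18 for *Nr4a2* in liver, neither of them past the threshold. Among relations across pools (permutation tests), the Ctr levels of *Nr4a1* and *Nr4a2* in cortex passed in the BXD/RwwJ lines alone (r = 0.42, adjusted p = 0.0335). The Ctr and SD levels of *Nr4a2* in liver passed in these lines (r = 0.40, adjusted p = 0.0399), with a prior count of 5 (r = 0.42, adjusted p = 0.0206) and with sublines and repeat parental pools averaged (r = 0.43, adjusted p = 0.0331), whereas with these averaged the same relation in cortex no longer did (r = 0.39, adjusted p = 0.0534). Without BXD67 and BXD89, chosen after seeing the data, the changes in cortex of *Nr4a1* and *Nr4a2* (r = 0.31) and of *Nr4a2* and *Nr4a3* (r = 0.38) no longer passed, and 2 values that had not passed turned sign, the Ctr and SD levels of *Nr4a1* (r = 0.074) and the Ctr levels of *Nr4a2* and *Nr4a3* (r = -0.0049). The cause was not tested. Depth limits the liver values: the libraries hold few reads of either member.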
